A study of Mus musculus with 8 samples.

Results

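RNA recovered by immunoprecipitation (IP) with an antibody against GFP was compared with RNA recovered with an antibody against the poly(A) binding protein PABP1, in mouse embryonic stem (ES) cells of the line Dazl-GFP. The comparison used 5 of the study's 8 arrays, 3 GFP IPs and 2 PABP1 IPs, chosen by their titles. The 3 input arrays, of total RNA with no antibody, served as the reference that separates gain in the GFP IP from loss in the PABP1 IP. All groups came from 1 line, which the labels call transgenic and re-derived, and shared 1 culture scheme. Cells grew on γ-irradiated mouse embryonic fibroblast feeders in DMEM with 15% FBS and leukemia inhibitory factor (LIF), together with the MEK inhibitor PD0325901 at 1 µM and the GSK3β inhibitor CHIR99021 at 3 µM. The IPs were native, and control-antibody IPs were not analysed here. Whether GFP is fused to DAZL or only reports on its gene is not given in the labels. Nor do the labels say that the arrays within a group stem from separate cultures, so the p-values reflect the spread between these samples alone, which may be technical.

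DAZL is an RNA-binding protein of germ cells that binds U-rich motifs in 3′ untranslated regions and is known to recruit poly(A) binding proteins to its targets, which favours their translation. PABP1, the product of Pabpc1, coats the poly(A) tails of cytoplasmic mRNAs, while RNAs that stay in the nucleus or lack a tail are poor ligands. The study used the IPs to find RNAs bound to DAZL. A gene can stand higher in the GFP IP than in the PABP1 IP because the GFP IP gained it or because the PABP1 IP lost it, and the input tells these cases apart.

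Per array, between 41.5% and 52.6% of the 43379 spots stood well above background, and 0 were saturated. Each value below is the log2 signal minus the array's 75th percentile, so it is relative to that array and not an amount. It is compared between arrays for 1 gene and not between genes. Differences are in log2 units with limma's standard error (SE). Adjusted p-values are limma's after Benjamini-Hochberg adjustment over the 14669 genes tested, and a call is an adjusted p under 0.05. The arrays lay on 2 slides, each with all 3 groups but only 1 PABP1 IP array, so values within a slide hold no PABP1 replicate.

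The IPs differed for most genes. The GFP IP was higher than the PABP1 IP for 3459 genes (23.6% of those tested) and lower for 6982 (47.6%). Of the higher genes 2467 differed by at least 2-fold, 1111 by at least 4-fold and 264 by at least 8-fold, and of the lower genes 5352, 2007 and 252 did. All GFP arrays lay above both PABP1 arrays for 3456 of the higher genes, and below them for 6961 of the lower genes. Over all tested genes 26.9% had the first order and 53.8% the second. The median difference over all genes was -0.68. The share of higher among all calls was 33.1%. It moved to 46.8% with median scaling and 46.1% with the 75th percentile of detected probes. With quantile normalization it was 43.0%, and tested against the median difference 56.8%. Normexp background correction lowered it to 26.0%, with 1093 genes higher and 3103 lower, so under that setting most genes were not called.

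Each IP was then set against input. The GFP IP was higher than input for 3108 genes (21.2%) and lower for 6380 (43.5%), and the PABP1 IP was higher for 5034 (34.3%) and lower for 3711 (25.3%). Both comparisons share the input arrays, and each shares its IP arrays with the comparison between the IPs. Among the 3459 higher genes, 1267 (36.6%) were gained in the GFP IP and not lost from the PABP1 IP, 1355 (39.2%) were lost from the PABP1 IP and not gained in the GFP IP, and 721 (20.8%) did both. These classes held 8.64%, 9.24% and 4.92% of all tested genes. The other 116 had neither call.

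Higher in the GFP IP thus did not mean gained there. Of the 1355 genes lost from the PABP1 IP, 594 were also lower in the GFP IP than in input, and the other 761 were not called between GFP IP and input. Of the 1267 genes gained in the GFP IP, 409 were also gained in the PABP1 IP and 858 were not called there. The step between GFP IP and input was the larger of both steps for 48.5% of the higher genes and for 47.8% of the lower genes.

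Among the 6982 lower genes, 2405 (34.4%) were lost from the GFP IP, 2160 (30.9%) were gained in the PABP1 IP and 1832 (26.2%) did both, while 585 had neither call. The 3 classes held 16.4%, 14.7% and 12.5% of all tested genes. In the first, 444 genes were lower than input in both IPs, and in the second, 451 were higher than input in both. The median GFP IP minus input was -1.25 in the class of loss from the GFP IP and -0.93 in the class of both.

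**Figure D1:**
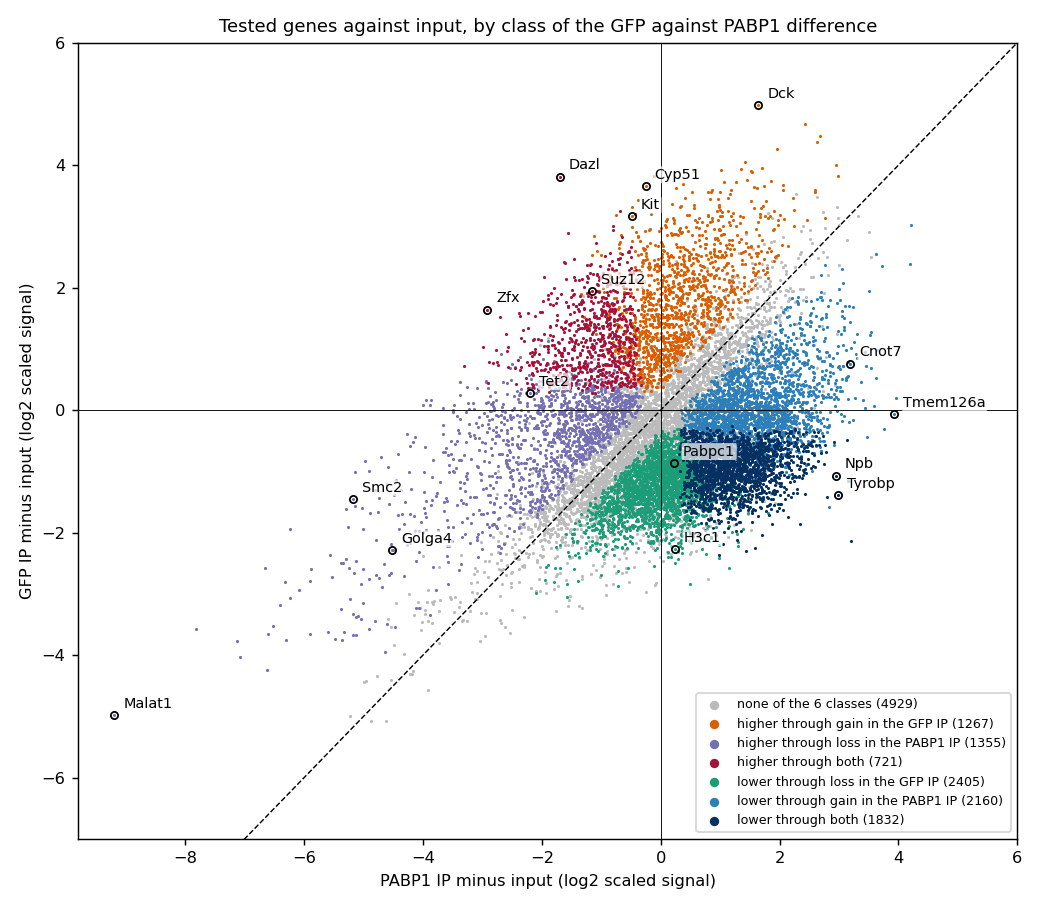
Each point is a tested gene, placed by PABP1 IP minus input (horizontal axis) and GFP IP minus input (vertical axis), both in log2 scaled signal, and coloured by class; circled genes are named and the dashed line marks equal values in both IPs. Dazl (-1.70 and 3.81) lies to the upper left, and Malat1, drawn at its measured value although not well above background in the PABP1 IP, lies far to the lower left.

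Dazl had the largest difference of all genes. It read 3.13, 3.84 and 3.27 on the GFP IP arrays, -2.12 and -2.09 on the PABP1 IP arrays and -0.23, -0.36 and -0.61 on the inputs. The groups did not overlap, with the PABP1 IP lowest and the GFP IP highest. The GFP IP exceeded the PABP1 IP by 5.52 ± 0.23 (SE, adjusted p = 9.1e-06, limma), or 45.7-fold, with a step of 3.81 from input to GFP IP and of -1.70 from input to PABP1 IP. Within the slides the difference was 5.96 and 5.29. The other Dazl probe, which was above background on 3 of 8 arrays, gave 3.31.

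Pabpc1 followed the slide. It read 9.32 and 7.79 in the PABP1 IP, 7.05, 8.60 and 6.78 in the GFP IP and 8.55, 8.83 and 7.62 in input. The IPs overlapped and differed by -1.08 ± 0.68 (adjusted p = 0.19, limma). With the slide as a block the difference was -0.85 ± 0.19 (adjusted p = 0.0050, limma), and within the slides it was -0.73 and -0.88.

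Tet1 and Tet2, which encode enzymes that oxidize 5-methylcytosine in DNA, stood higher in the GFP IP through loss from the PABP1 IP. Tet1 read 0.87, 1.58 and 1.23 in the GFP IP, 1.34, 1.48 and 0.86 in input and -0.60 and -1.05 in the PABP1 IP. GFP IP and input overlapped, and both PABP1 arrays lay below every other array. The IPs differed by 2.05 ± 0.28 (adjusted p = 0.00045, limma), or 4.15-fold, and PABP1 IP minus input was -2.06. Tet2 read 0.03, 0.13 and -0.12 in the GFP IP, -0.30, -0.17 and -0.35 in input and -2.54 and -2.39 in the PABP1 IP. GFP IP minus input was 0.28 (adjusted p = 0.072, limma), but with the slide as a block it was 0.31 and called (adjusted p = 0.036, limma), which puts Tet2 among the genes of both. The IPs differed by 2.47 ± 0.13 (adjusted p = 1.1e-05, limma). Between the IPs the other Tet2 probe, which was above background on 5 of 8 arrays, gave 2.97. Tet3 was not tested, since its brightest probe was not well above background on every array of any group.

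The leading genes gained in the GFP IP were Cyp51, Kit, Soga1, Pcyox1l, Dr1 and Dck. Cyp51, a demethylase of sterol synthesis, read 3.75, 3.61 and 3.86 in the GFP IP, -0.24 and -0.11 in the PABP1 IP and -0.13, 0.06 and 0.30 in input. PABP1 IP and input overlapped, and the GFP IP stood 15.1-fold above the PABP1 IP (3.92 ± 0.16, adjusted p = 9.1e-06, limma) and 12.7-fold above input. By both other Cyp51 probes, well above background on all arrays, the difference between the IPs was smaller, at 1.93 and 1.75. Kit, the receptor for stem cell factor, read 5.22, 5.80 and 5.58 in the GFP IP, 1.98 and 1.79 in the PABP1 IP and 2.50, 2.58 and 2.02 in input. Its GFP IP was 12.6-fold above the PABP1 IP and 8.97-fold above input, and PABP1 IP minus input was -0.48 (adjusted p = 0.11, limma).

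Dck, the deoxycytidine kinase of nucleotide salvage, was gained in both IPs. It read -1.86, -1.54 and -1.72 in input, -0.25 and 0.12 in the PABP1 IP and 3.49, 2.97 and 3.37 in the GFP IP. The groups formed 3 separate steps, with the PABP1 IP 3.12-fold and the GFP IP 31.7-fold above input. Dr1, a repressor of transcription, was 15.0-fold above input in the GFP IP and 10.2-fold above the PABP1 IP. Soga1 and Pcyox1l were 7.94-fold and 9.20-fold above input in the GFP IP, and neither was called between PABP1 IP and input. For Soga1 a second probe on all arrays gave 0.90 between the IPs and -0.14 against input, so that gain was seen with 1 probe. For Dr1 a second probe, above background on 6 of 8 arrays, gave 0.66 between the IPs. With the slide as a block Cyp51 (-0.29, adjusted p = 0.044, limma), Kit (-0.42, adjusted p = 0.031) and Soga1 (-0.57, adjusted p = 0.0088) were called below input in the PABP1 IP, so 3 of the 6 leaders moved to the class of both.

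Some gained RNAs were dim elsewhere. For 99 genes every GFP array and no PABP1 array was well above background. Of them 98 were called higher, which followed largely from that choice of genes and is not a separate result. For such genes only a bound is given. On each PABP1 array it uses the higher of the gene's own signal and the dimmest signal well above background. The bound compares group means with no allowance for the spread between arrays, so "at least" refers to this floor alone. Kbtbd8, an adaptor of a ubiquitin ligase, read -0.78, -1.10 and -0.85 in the GFP IP and was not well above background on any PABP1 or input array. It was at least 8.62-fold higher in the GFP IP than in the PABP1 IP and at least 5.10-fold higher than in input. The pattern was the same for 1700013H16Rik (at least 6.20-fold and 3.94-fold) and for Rnf182, a ubiquitin ligase (at least 5.26-fold and 3.83-fold).

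The class of both held, after Dazl, the genes Zfx, Klhl28, Rbm47, Otud4 and Dcaf12l1. Zfx, an X-linked zinc finger factor known for its part in ES cell self-renewal, read 2.38, 2.47 and 2.40 in the GFP IP, 0.63, 0.77 and 0.93 in input and -2.25 and -2.04 in the PABP1 IP. The groups were tight and separate. The IPs differed 23.7-fold (4.57 ± 0.14, adjusted p = 9.1e-06, limma), with 3.12-fold gain and 7.59-fold loss. Its other probe, above background on 6 of 8 arrays, gave 0.18 between the IPs and 1.19 for PABP1 IP minus input, so the loss of Zfx was seen with 1 probe. Rbm47, an RNA-binding protein that works with APOBEC1, differed 17.5-fold, with 4.49-fold gain and 3.90-fold loss. Otud4, a deubiquitinase, differed 16.3-fold, although a second probe on 7 of 8 arrays gave 1.19 on the log2 scale and -0.74 against input in the GFP IP. Klhl28 differed 18.8-fold. Dcaf12l1 lay near the edge of the class: its gain was 9.55-fold and its loss 1.62-fold, and it kept the class in 15 of 21 alternative settings.

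Loss from the PABP1 IP was led by Srek1, Taok1, Smc2, Sltm, Phip and Helz. Srek1, a regulator of splicing, read -2.57 and -2.90 in the PABP1 IP, 1.03, 1.48 and 0.93 in input and 0.55, 1.85 and 1.27 in the GFP IP. GFP IP and input overlapped, both more than 3 log2 units above the PABP1 IP. The IPs differed 15.5-fold (3.96 ± 0.37, adjusted p = 7.4e-05, limma) and input stood 14.7-fold above the PABP1 IP. Both other Srek1 probes on all arrays had smaller differences between the IPs, of 2.69 and 2.07. Smc2, a core subunit of condensin, read 2.17, 2.66 and 2.48 in input, 0.46, 1.32 and 1.16 in the GFP IP and -2.86 and -2.64 in the PABP1 IP. The GFP IP was itself 2.74-fold below input and the PABP1 IP 36.3-fold below it, so by this probe a 13.3-fold difference between the IPs arose with no gain. A second probe, above background on 6 of 8 arrays, gave 2.05 for GFP IP minus input and -0.62 for PABP1 IP minus input, while another, on 7 of 8 arrays, gave -1.80 and -5.88.

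The other leaders had the same order. Taok1, a kinase of microtubule and stress signalling, was 26.2-fold lower in the PABP1 IP than in input, Phip 24.2-fold, the RNA helicase gene Helz 17.9-fold and Sltm 17.6-fold. In the GFP IP these 4 genes read -0.76, -0.93, -0.52 and -0.44 against input on the log2 scale, and Phip alone was called. With the slide as a block Taok1 (-1.02, adjusted p = 0.0015, limma) and Helz (-0.66, adjusted p = 0.011) were called below input as well, and all 6 leaders kept their class. Both other Sltm probes on all arrays gave 1.56 and 2.10 between the IPs, against 3.70 by the reported one. Thoc2, a subunit of the complex that couples transcription to mRNA export, was well above background on no PABP1 array. It was at least 9.40-fold higher in the GFP IP than in the PABP1 IP, although the GFP IP lay below input (-0.83, adjusted p = 0.046, limma, and 0.065 with the slide as a block). Kdm7a, a histone demethylase, and Nfat5, a transcription factor of osmotic stress, had bounds of 8.85-fold and 6.17-fold, and neither was called between GFP IP and input.

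Gain in the PABP1 IP was led by Tmem126a, Cript, Cmc1, Cyb5a, Rpl29 and Pyurf. Tmem126a, an assembly factor of respiratory complex I, read 4.78 and 4.76 in the PABP1 IP, 0.97, 0.74 and 0.81 in input and 0.86, 0.78 and 0.70 in the GFP IP. Input and GFP IP overlapped (-0.06, adjusted p = 0.65, limma), and the PABP1 IP was 15.2-fold above input and 15.9-fold above the GFP IP. Cyb5a, cytochrome b5, read 6.88 and 6.60 in the PABP1 IP, 3.54, 3.39 and 3.09 in input and 3.54, 3.54 and 3.44 in the GFP IP. Again only the PABP1 IP stood apart, 10.6-fold above input. Cmc1, which acts in the assembly of cytochrome c oxidase, was gained 6.68-fold, Cript 6.52-fold, Pyurf 6.95-fold and Rpl29, of the large ribosomal subunit, 6.15-fold. Once the slide was a block, Cript (-0.86, adjusted p = 0.0011, limma), Cmc1 (-0.63, adjusted p = 0.00044) and Pyurf (-0.40, adjusted p = 0.021) were called below input in the GFP IP, so these 3 of the 6 leaders moved to the class of both.

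Loss from the GFP IP was led by Ctla2a, Mdga2, Plaat3, Pdzk1ip1, Bloc1s1 and Syngr4, with SEs from 0.46 to 0.86 for the difference between the IPs. The class of most of these genes rested on leaving the slide out. When the slide was a block, 5 of the 6, all but Ctla2a, were called above input in the PABP1 IP and moved to the class of both, with PABP1 IP minus input from 0.96 (Plaat3, adjusted p = 0.032, limma) to 1.31 (Syngr4, adjusted p = 0.00063). Bloc1s1, a small subunit of complexes of lysosome-related organelles, read 3.95, 4.59 and 3.67 in the GFP IP, 6.41, 6.27 and 5.27 in input and 7.42 and 6.40 in the PABP1 IP. All GFP arrays lay below all others, with -2.84 ± 0.46 between the IPs (adjusted p = 0.0012, limma) and -1.91 against input. PABP1 IP minus input was 0.93 (adjusted p = 0.12, limma). It was 1.09 ± 0.13 with the slide as a block (adjusted p = 0.00037, limma), and it was 1.08 and 1.13 within the slides. Mdga2 had the widest spread, at -1.97, 0.17 and -2.30 in the GFP IP, and kept its class in 7 of 21 settings. A steadier member was H3c1, a replication-dependent histone H3, at -0.97, -0.99 and -1.52 in the GFP IP, 1.31, 1.12 and 0.90 in input and 1.68 and 1.02 in the PABP1 IP, which kept its class in 21 of 21.

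Genes that fell in the GFP IP and rose in the PABP1 IP were led by Tyrobp, Npb, Ly6g6c, Gng13, Uxt and Plac8. Uxt, a prefoldin-like protein, read 6.62 and 6.15 in the PABP1 IP, 4.62, 4.39 and 3.98 in input and 2.77, 2.79 and 2.51 in the GFP IP. The groups were separate, and the PABP1 IP was 12.9-fold above the GFP IP (-3.69 ± 0.23 for GFP IP minus PABP1 IP, adjusted p = 1.5e-05, limma). Tyrobp, a signalling adaptor of macrophages and natural killer cells, differed 20.7-fold, with 7.90-fold gain in the PABP1 IP and 2.63-fold loss from the GFP IP. Npb, the precursor of neuropeptide B, differed 16.2-fold and Gng13, a G protein subunit, 13.3-fold. For 351 genes both PABP1 arrays and no GFP array were well above background, and 316 of them were called lower, again largely by that choice. Among these Tomm20l was at least 8.63-fold, Capn9 at least 6.38-fold and Aif1 at least 6.27-fold higher in the PABP1 IP.

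**Figure D2:**
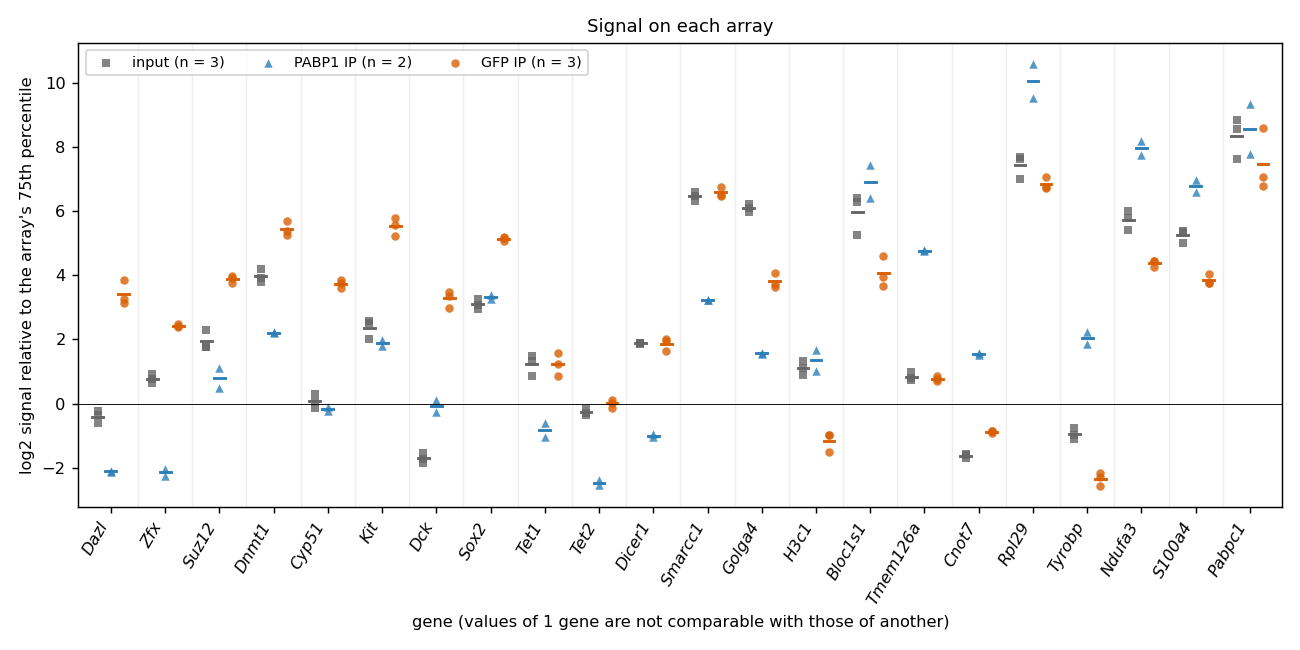
Points give each array's signal for named genes, as log2 relative to the array's 75th percentile, for input, PABP1 IP and GFP IP side by side, and short bars mark group means. Dazl shows 3 separate levels, Dicer1 has GFP IP and input together above the PABP1 IP, and Tmem126a has them together below it.

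Gene lists were described by counts and medians beside those of all tested genes, of which 23.6% were higher and 47.6% lower between the IPs, with medians of -0.68 between the IPs, -0.52 for GFP IP minus input and 0.24 for PABP1 IP minus input. Against input 21.2% of all tested genes were higher and 43.5% lower in the GFP IP, and 34.3% were higher and 25.3% lower in the PABP1 IP. Between the IPs the list of DAZL targets known from germ cells had 12 of 18 tested members higher and 3 lower. Values ran from -2.63 to 3.77. Their median was 1.05 between the IPs, 1.46 for GFP IP minus input and -0.28 for PABP1 IP minus input, the last of which became 0.03 with normexp. By class 5 were gained in the GFP IP, 2 were lost from the PABP1 IP and 5 did both. Each of the 3 lower classes held 1 member. Sdad1, of ribosome biogenesis, read 6.64, 5.95 and 6.71 in the GFP IP, 4.20, 4.51 and 4.85 in input and 2.44 and 2.90 in the PABP1 IP, a separate level in each group. Its other probe on all arrays went the other way, at -0.71 between the IPs and -1.56 for GFP IP minus input. Tex19.1, which restrains retrotransposons in germ cells, was 9.22-fold above input in the GFP IP and 1.35-fold below it in the PABP1 IP. Prdm1, a regulator of germ cell specification, was 4.13-fold above input in the GFP IP and 2.09-fold below it in the PABP1 IP.

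**Figure D3:**
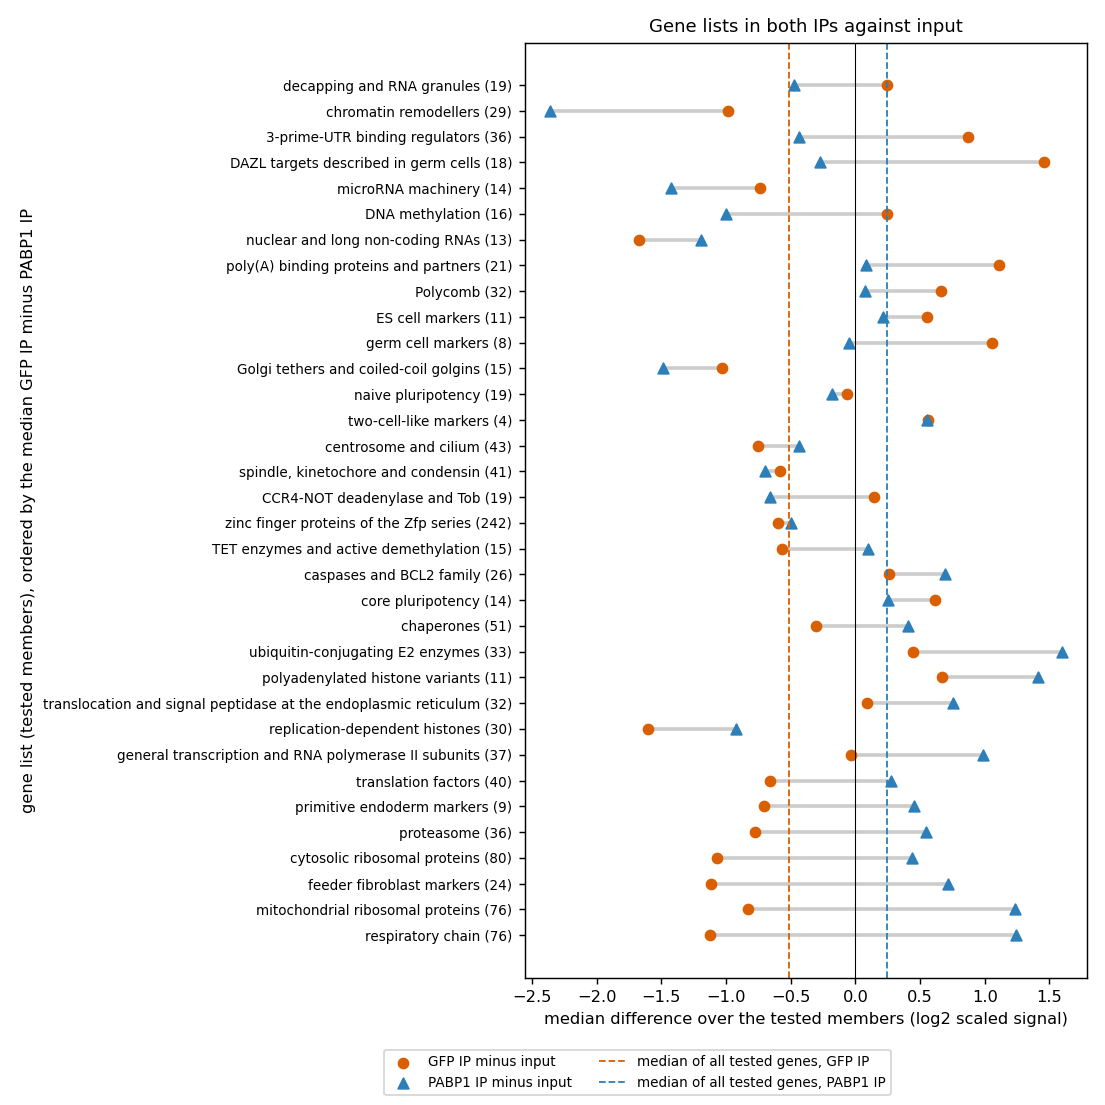
For each gene list, symbols give the median GFP IP minus input and the median PABP1 IP minus input over its tested members, in log2 scaled signal, and dashed lines mark the medians of all tested genes. Chromatin remodellers have their PABP1 median at -2.36, and the respiratory chain runs from -1.12 in the GFP IP to 1.24 in the PABP1 IP.

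mRNAs of proteins that themselves bind 3′ untranslated regions had 22 of 36 members higher and 8 lower, Dazl among them. By class 9 were gained in the GFP IP, 4 were lost from the PABP1 IP and 8 did both. Cpeb1 and Cpeb3, which bind cytoplasmic polyadenylation elements, differed 12.1-fold and 8.89-fold between the IPs, although Cpeb1 was well above background on 1 of 2 PABP1 arrays. Elavl2, a Hu protein that binds AU-rich elements, read 4.23, 4.25 and 4.29 in the GFP IP, 2.03, 2.03 and 2.10 in input and 0.84 and 1.12 in the PABP1 IP. Its groups did not overlap.

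Of 21 poly(A) binding proteins and partners 14 were higher and 5 lower, with 9 gained in the GFP IP, 3 lost from the PABP1 IP and 2 in both. The median GFP IP minus input was 1.11. Cpsf6, a subunit of a cleavage factor that selects polyadenylation sites, differed 13.3-fold between the IPs, with 4.40-fold gain and 3.02-fold loss by the reported probe. By both other probes above background on all arrays the IPs differed by 2.64 and 0.77 on the log2 scale, with PABP1 IP minus input at 0.11 and 0.51, so the loss was seen with 1 and the gain with all of these 3 probes. Papolg, a poly(A) polymerase, was gained 4.97-fold in the GFP IP and not called in the PABP1 IP. Larp4b, of a family that binds PABP1, was lost 3.99-fold from the PABP1 IP and not called in the GFP IP.

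Genes of the CCR4-NOT deadenylase and Tob split, with 6 of 19 higher and 4 lower. The catalytic subunits Cnot6 and Cnot6l were 6.25-fold and 6.85-fold higher in the GFP IP, both through gain and loss, and the catalytic subunit Cnot7 was 5.35-fold higher in the PABP1 IP. Cnot7 read -1.71, -1.58 and -1.61 in input, -0.84, -0.90 and -0.86 in the GFP IP and 1.58 and 1.51 in the PABP1 IP. It was above input in both IPs, by 1.69-fold and 9.07-fold. Decapping and RNA granule genes had 12 of 19 higher and 5 lower. The decapping enzyme gene Dcp2 was 7.26-fold higher in the PABP1 IP and not called between GFP IP and input. Its other probe, above background on 7 of 8 arrays, gave -0.18 between the IPs, 0.94 for GFP IP minus input and 1.11 for PABP1 IP minus input. The granule protein gene G3bp2 was 3.58-fold above input in the GFP IP, and the helicase gene Ddx6 was 7.25-fold below input in the PABP1 IP.

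In the microRNA machinery 7 of 14 genes were higher and 2 lower, 5 through loss from the PABP1 IP, 2 through both and 0 through gain in the GFP IP alone. Dicer1, the enzyme that cuts microRNA precursors, read 1.63, 1.94 and 2.01 in the GFP IP, 1.85, 1.90 and 1.89 in input and -0.95 and -1.05 in the PABP1 IP. GFP IP and input overlapped, and the 7.28-fold difference lay on the PABP1 side, as it did by a second probe with 1.78 between the IPs. Ago2, the slicer of the silencing complex, was gained 1.66-fold in the GFP IP and lost 6.65-fold from the PABP1 IP, and its 3 other probes on all arrays gave 1.93 to 2.26 between the IPs against 3.46.

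Of 32 Polycomb genes 17 were higher and 7 lower, with 12 gained in the GFP IP, 1 lost from the PABP1 IP and 4 in both. Suz12, a core subunit of the histone methyltransferase complex PRC2 and also on the list of DAZL targets, read 3.92, 3.75 and 3.97 in the GFP IP, 1.77, 1.75 and 2.30 in input and 0.48 and 1.10 in the PABP1 IP. Its groups did not overlap, and the IPs differed 8.53-fold, with 3.84-fold gain and 2.22-fold loss. Mtf2 and Jarid2, accessory subunits of PRC2, differed 8.66-fold and 8.45-fold through both. Pcgf1, of a variant PRC1 complex, was 6.81-fold higher in the PABP1 IP.

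Of 16 DNA methylation genes 10 were higher and 3 lower, with 1 gained in the GFP IP, 4 lost from the PABP1 IP and 4 in both. Dnmt1, the maintenance methyltransferase, read 5.68, 5.39 and 5.25 in the GFP IP, 4.19, 3.92 and 3.78 in input and 2.22 and 2.20 in the PABP1 IP, with no overlap of groups. Its partner Uhrf1 was gained 1.65-fold and lost 2.47-fold, and the remodeller gene Hells 3.76-fold and 2.37-fold. TET enzymes and genes of active demethylation were even, with 6 higher and 6 lower of 15. On the lower side the DNA polymerase gene Polb and the stress gene Gadd45g were 4.18-fold and 3.32-fold higher in the PABP1 IP.

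Chromatin remodellers were higher mainly through loss from the PABP1 IP. Of 29 genes 23 were higher and 2 lower, and 18 of the higher genes were lost from the PABP1 IP, 3 were gained in the GFP IP and 2 did both. The list's median was -2.36 for PABP1 IP minus input and -0.99 for GFP IP minus input. Smarcc1, a core subunit of BAF complexes, read 6.75, 6.50 and 6.48 in the GFP IP, 6.61, 6.48 and 6.31 in input and 3.24 and 3.22 in the PABP1 IP. GFP IP and input overlapped and input was 9.42-fold above the PABP1 IP. Baz1a, of ISWI complexes, was 10.3-fold below input in the PABP1 IP and not called in the GFP IP.

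Of 15 golgins and Golgi tethers 8 were higher and 3 lower, 7 of the higher genes through loss from the PABP1 IP. Golga4, a large coiled-coil tether, read 6.22, 6.10 and 5.96 in input, 3.64, 4.06 and 3.73 in the GFP IP and 1.55 and 1.58 in the PABP1 IP. The groups formed descending steps, with the GFP IP 4.87-fold and the PABP1 IP 23.0-fold below input. Pcm1, a protein of centriolar satellites, was 2.97-fold and 35.5-fold below input in the same order, while the centrosome and cilium list had 18 higher and 18 lower of 43.

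Among 13 tested nuclear and long non-coding RNAs 8 were lower and 1 higher than input in the GFP IP, and 7 were lower and 3 higher in the PABP1 IP. Between the IPs 7 were higher in the GFP IP and 3 lower, 5 of the higher through loss from the PABP1 IP. This list does not stand for long non-coding RNAs at large. It had medians of 0.88 between the IPs and -1.20 for PABP1 IP minus input. Over the 216 tested long non-coding RNA genes these medians were -1.52 and 0.70. Malat1, an abundant RNA of nuclear speckles, read 4.32, 4.81 and 4.22 in input and -1.17, 0.17 and -0.59 in the GFP IP, and input was 31.5-fold above the GFP IP. On the PABP1 arrays it was not well above background, at least 354-fold below input and at least 11.2-fold below the GFP IP. By this probe it stood higher in the GFP IP while depleted from both. A second probe, above background on 6 of 8 arrays, gave -4.11 and -4.40 against input in the GFP IP and the PABP1 IP. Snhg8, a small nucleolar RNA host gene, was 3.83-fold below input in the GFP IP and well above background on 1 of 2 PABP1 arrays.

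Replication-dependent histone mRNAs end in a stem-loop and not in a poly(A) tail, and 30 of 62 listed genes were tested. In the GFP IP 24 of the 30 were lower than input and 1 higher, against 43.5% and 21.2% of all tested genes. In the PABP1 IP 11 were lower and 8 higher, against 25.3% and 34.3% of all tested genes. Of the 30 histone genes 14 were lower in the GFP IP than in the PABP1 IP and 3 higher. Their median of -0.57 became 0.34 under quantile normalization and 0.11 against the median of all genes. Of 11 polyadenylated histone variants 6 were above input in the GFP IP and 8 in the PABP1 IP. H2az1, a variant of histone H2A, read 9.24 and 9.28 in the PABP1 IP, 7.41, 7.20 and 7.45 in input and 7.78, 7.26 and 7.52 in the GFP IP. GFP IP and input overlapped, and the 3.34-fold difference between the IPs lay on the PABP1 side.

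Genes of the nuclear-encoded respiratory chain lay on the lower side. Of 76 members 72 were lower in the GFP IP and 0 were higher, and the median was -2.38; under other scalings 0 to 3 were higher. By class 49 did both, 13 were lost from the GFP IP and 10 were gained in the PABP1 IP. Ndufa3, a small subunit of complex I, read 4.46, 4.44 and 4.26 in the GFP IP, 6.01, 5.80 and 5.41 in input and 8.18 and 7.76 in the PABP1 IP. The groups were separate, with 2.55-fold loss and 4.70-fold gain. A second probe on all arrays gave -2.20 between the IPs, with 2.55 for PABP1 IP minus input and 0.35 for GFP IP minus input. Mitochondrial ribosomal proteins had 71 of 76 lower and 2 higher, 44 of them through both, and Mrps21 differed 9.55-fold between the IPs.

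For cytosolic ribosomal proteins 57 of 80 mRNAs were lower in the GFP IP than in the PABP1 IP and 0 were higher, and the median was -1.50. By class 24 were lost from the GFP IP, 8 were gained in the PABP1 IP and 21 did both. They varied with the slide: all 80 were called lower with the slide as a block, and the median was -1.83 within slide 1 and -1.03 within slide 2. Under quantile normalization 24 were lower and 1 higher, with a median of -0.14. Rps15, of the small subunit, read 6.95, 6.82 and 6.75 in the GFP IP, 8.39, 8.11 and 7.89 in input and 9.79 and 9.26 in the PABP1 IP, with no overlap. Translation factors had 26 of 40 lower and 7 higher, and initiation factor Eif3f was 5.26-fold higher in the PABP1 IP.

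Of 36 proteasome genes 30 were lower and 3 higher, 11 through loss from the GFP IP, 9 through gain in the PABP1 IP and 9 through both. Of 33 ubiquitin-conjugating enzymes 26 were called above input in the PABP1 IP and 16 in the GFP IP. Between the IPs 15 were lower in the GFP IP and 7 higher, 13 of the lower through gain in the PABP1 IP, with a median of -0.46 that became 0.22 against the median of all genes. Ube2a, an enzyme of DNA damage tolerance, read 5.37 and 5.09 in the PABP1 IP, 2.69, 2.56 and 2.39 in input and 2.55, 2.50 and 2.49 in the GFP IP, and only the PABP1 IP stood apart. A second Ube2a probe on all arrays was above input in both IPs, by 1.58 and 0.89, and gave -0.69 between them. Genes of general transcription had 20 lower and 9 higher of 37. Among them Gtf2a1 was 11.8-fold and Taf7 9.84-fold higher in the GFP IP (on the log2 scale 3.56 and 3.30, and 0.92 and 2.48 by a second probe of each), and the small polymerase subunit gene Polr2f was 6.85-fold higher in the PABP1 IP.

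Pluripotency genes went both ways. Of 14 core members 6 were higher and 6 lower, and of 19 naive members 9 were higher and 5 lower. Sox2 read 5.18, 5.07 and 5.15 in the GFP IP, 3.27 and 3.37 in the PABP1 IP and 3.08, 2.96 and 3.27 in input, and was gained 4.09-fold in the GFP IP alone. Pou5f1, its partner in the core network, read 5.91, 5.12 and 5.45 in the GFP IP, 7.44 and 7.64 in the PABP1 IP and 5.95, 6.12 and 6.39 in input. It was 4.12-fold higher in the PABP1 IP, in the class of both, which it kept in 9 of 21 settings. Tfcp2l1 and Nr5a2, factors of the naive state, were 6.03-fold and 6.34-fold below input in the PABP1 IP, and Klf5 and Pecam1 did both. With the slide as a block Tfcp2l1 and Nr5a2 were also called below input in the GFP IP. The values were -0.47 (adjusted p = 0.013, limma) and -0.68 (adjusted p = 0.00044, limma). Of 26 caspase and BCL2 family genes 9 were higher and 11 lower. Pmaip1, which promotes apoptosis, was gained 7.65-fold in the GFP IP, and Bax, which opens the mitochondrial outer membrane, was 6.87-fold higher in the PABP1 IP.

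Markers of cell types were read on the same arrays. Of 12 ES cell markers 11 were on the array and well above background on every array. Between the IPs 6 were higher in the GFP IP and 3 lower, and their median was 0.55. Against input 6 were called above and 2 below for the GFP IP, the median being 0.55. The sum ran the other way. Their summed signal, linear and relative to the array's 75th percentile, was 1516 to 2021 in the GFP IP, 2038 to 3942 in the PABP1 IP and 2276 to 4213 in input. These ranges mix the slides. On slide 1 the sum was 4213.3 and 4023.5 in input, 3941.8 in the PABP1 IP and 2021.3 in the GFP IP. On slide 2 it was 2276.1 in input, 2038 in the PABP1 IP and 1799.6 and 1516.2 in the GFP IP. Of 24 tested feeder fibroblast markers 19 were lower in the GFP IP than in the PABP1 IP and 3 higher. Their sum was 263 to 337 in the GFP IP, 1137 to 1232 in the PABP1 IP and 613 to 825 in input, with no overlap of groups. S100a4, Timp1 and Lgals1 were 2.63-fold, 3.58-fold and 3.87-fold below input in the GFP IP. The part of feeder RNA in the genes lower in the GFP IP was not tested. These sums are relative to the 75th percentile of each array and are not shares of its RNA. They measure neither numbers of cells nor RNA per cell.

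Of 8 tested germ cell markers 4 were higher and 2 lower between the IPs, with values from -2.63 to 5.52. The listed marker Mael went the other way from Dazl. By the deposited group means it was -1.99 between the IPs and 2.02 for PABP1 IP minus input. The 13 markers on the array, Dazl and Kit among them, summed to 68.2 to 89.7 in the GFP IP, 19.02 to 19.37 in the PABP1 IP and 15.7 to 17.4 in input. Without Dazl and Kit the other 11 summed to 19.7 to 22.1, 15.2 to 15.3 and 10.1 to 11.03. Primitive endoderm markers summed to at most 4.69 and 2-cell-like markers to at most 3.49 on any array. Of the remaining lists, chaperones had 9 higher and 22 lower of 51, translocation and signal peptidase genes of the endoplasmic reticulum 10 and 14 of 32, spindle and kinetochore genes 16 and 9 of 41, and zinc finger genes of the Zfp series 68 and 81 of 242. The sign of the median difference between the IPs turned under at least 1 scaling or slide setting for 12 lists: TET enzymes, core pluripotency, CCR4-NOT, caspases and BCL2, both histone lists, centrosome, Zfp, chaperones, ubiquitin-conjugating enzymes, endoplasmic reticulum and primitive endoderm.

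The span of a gene from its first to its last annotated base was not used to form the classes. It was known for 12954 tested genes from RefSeq's table of GRCm38.p6. It includes introns and is not the length of the mRNA, which was not analysed here. In the bin of shortest genes among 10 bins of equal size (median 2.11 kb) the median GFP IP minus PABP1 IP was -1.57, with 5.56% higher and 70.2% lower. In the bin of longest genes (median 164 kb) it was 0.35, with 43.7% higher and 26.1% lower. The median PABP1 IP minus input went from 0.91 to -0.46 between these bins, and the median GFP IP minus input from -0.82 to -0.27. Across genes, which share the arrays and are not independent, Spearman's rho with span was 0.42 between the IPs, -0.36 for PABP1 IP minus input and 0.16 for GFP IP minus input.

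By class the median span was 56.7 kb for loss from the PABP1 IP, 53.5 kb for higher through both and 29.8 kb for gain in the GFP IP, against 20.8 kb over all genes. It was 15.9 kb for loss from the GFP IP, 13.7 kb for gain in the PABP1 IP and 9.60 kb for lower through both. Chromatin remodellers had a median span of 77.8 kb, Golgi tethers 49.4 kb, the respiratory chain 7.39 kb and cytosolic ribosomal proteins 3.17 kb. Single genes went against this order: Sox2 spans 2.47 kb and Tex19.1 2.17 kb, both gained in the GFP IP, and Cmc1 spans 86.2 kb and was gained in the PABP1 IP. These 3 were chosen after their values were seen. The 216 long non-coding RNA genes had a median of -1.52 between the IPs and the 12663 protein-coding genes -0.63.

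**Figure D4:**
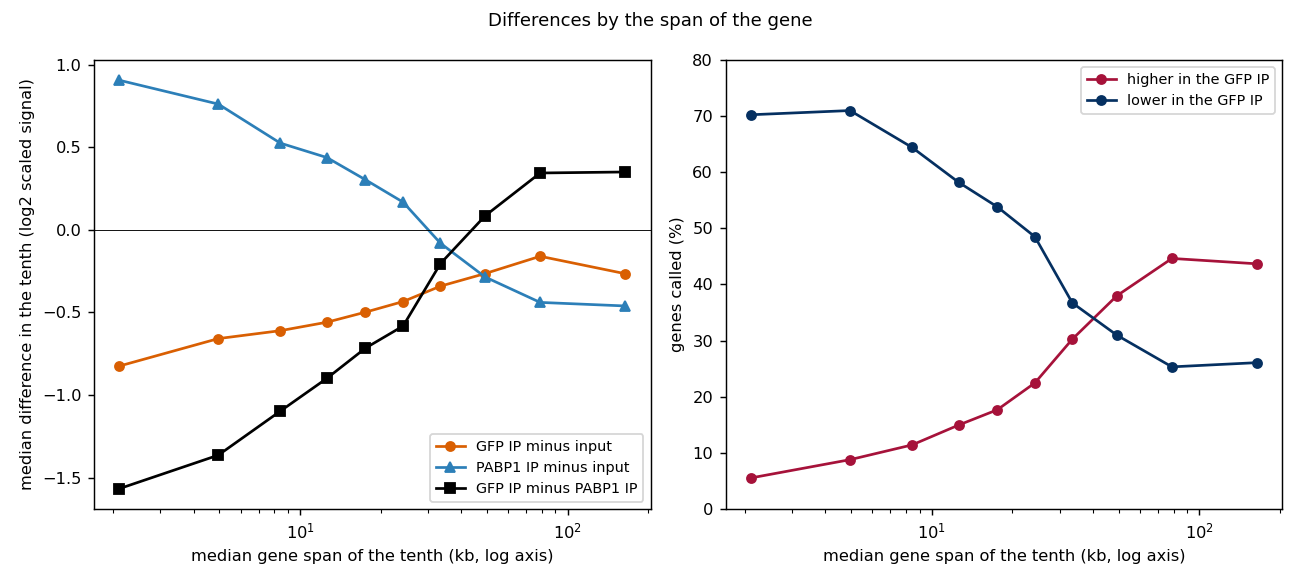
Lines give the median log2 differences between IPs and input and between the IPs, and the percentage of genes called higher or lower in the GFP IP, in 10 bins of tested genes ordered by gene span in kb on a log axis. The median PABP1 IP minus input falls from 0.91 in the shortest bin to -0.46 in the longest, and that of the GFP IP goes from -0.82 to -0.27.

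The input level was a weaker guide. In 5 bins by input signal the share called higher was 15.1% in the dimmest, 30.8% in the middle and 17.9% in the brightest, and the share called lower was 46.7%, 41.4% and 60.9%. Other probes of called genes, where well above background on all arrays, had the sign of the reported probe in 2312 of 2838 cases (81.5%). The size varied more. Of the 36 leading genes of the classes, whose probes above background on all arrays share 1 sign by the rule that chose them, 17 had another probe above background on 5 arrays or more. Of these 24 probes 20 had a smaller difference between the IPs than the reported probe, and 15 lay more than 1.5-fold from it. The leaders were chosen for a large difference by the reported probe, which by itself favours smaller differences by other probes.

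How many genes kept their class depended on the setting. With the slide as a block 87.7% of the genes gained in the GFP IP, 94.3% of those lost from the PABP1 IP, 87.0% of those gained in the PABP1 IP and 82.6% of those lost from the GFP IP did. Under quantile normalization these shares were, in the same order, 93.4%, 92.0%, 76.3% and 62.5%. With median scaling they were 99.4%, 72.7%, 67.6% and 35.8%, and against the median difference 84.8%, 71.1%, 56.7% and 28.1%. Normexp background correction, with an offset of 50 added to each signal, left 18.5%, 15.3%, 35.2% and 11.5% in place. The median processed signal per array was 5.88 to 11.5, and the effect of the offset apart from the correction was not tested. Dck, Srek1, Smc2, Golga4, Tmem126a, Cyb5a and Cnot7 kept their class in all 21 alternatives, Dazl, Suz12 and Tet1 in 20, and Tet2 in 17.

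**Figure D5:**
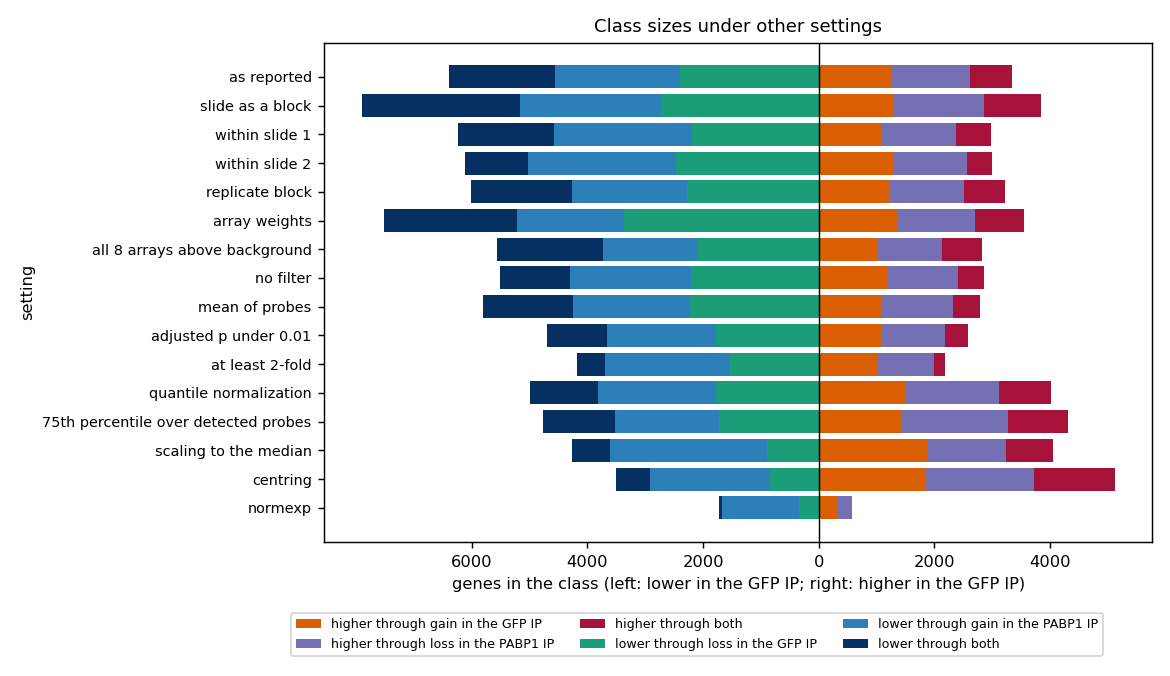
Bars give the number of genes in each class as reported and under other settings, with genes higher in the GFP IP on one side of 0 and genes lower on the other. Testing against the median difference moves the totals from 3459 higher and 6982 lower to 5245 and 3997. Normexp with an offset of 50 leaves 1093 and 3103.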

How the data were processed

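RNA of the 8 samples was labelled with Cy3 and hybridised to 1-colour Agilent arrays (design 014868). The deposited intensity values came, per the file headers, from Feature Extraction 9.1.3.1 with protocol GE1-v5_95_Feb07, which subtracted background, removed spatial trends and gave dim spots a surrogate intensity. Other values deposited in the same files are flags for saturation, outlier spots and signal well above background. A table of mean intensities per group was deposited too, with a scaling that the sources used here do not give. It served as an alternative without a test, in which 76 named genes counted as moved and 22 as the same. By that table GFP IP minus input was -0.01 for Pou5f1 and -0.49 for Npb, against -0.79 and -1.06 with the slide as a block. For Pabpc1 it gave -0.32 between the IPs, against -1.08 in the main fit.

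Values are log2 of the processed intensity minus the 75th percentile of that array. Repeated spots were averaged per probe (41174 probes, 30 left out for an outlier spot), and the probe with the highest mean stood for its gene. A gene was tested where 1 group or more had it well above background on all its arrays, which kept 14669 of 27666 genes; 12954 of these were named through RefSeq's GRCm38.p6 table and 1715 kept the array's name. All 8 arrays were fitted with limma 3.58.1 under R 4.3.3 (functions lmFit and eBayes, 5 residual and 2.11 prior degrees of freedom), with Benjamini-Hochberg adjustment. The fit was tested on simulated data. The number of arrays limits the precision, and no counting interval applies.

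A gene higher in the GFP IP was classed as gained there where the GFP IP was called above input and the PABP1 IP was not called below it, as lost from the PABP1 IP in the reverse case, and as both where both calls held; lower genes were classed likewise. Named genes were Dazl, Pabpc1 and the Tet genes, the 6 of largest difference per class among genes well above background on all arrays with probes of 1 sign, up to 4 called members of each of 34 lists, and the 6 of largest bound each way. The members compared, the lists and the rules were chosen with earlier results of these data known. The planned description by protein length was not run, and gene span, added after the data were seen, took its place. Tables were made with pandas 2.3.3 and numpy 2.4.6 in Python 3.11.15 and figures with matplotlib 3.10.9. No control-antibody IP, probe sequence or mRNA length was analysed here.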

Additional observations from a re-analysis of the deposited data

How the results depend on the processing

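Testing against the median difference over all genes gave 5245 genes higher and 3997 lower in the GFP IP, with 1392 higher through both, 850 lost from the GFP IP and 599 lower through both. Median scaling gave 894 lost from the GFP IP and 663 lower through both, and quantile normalization 1174 lower through both. Normexp with an offset of 50 gave 1093 higher and 3103 lower genes. By class it gave 328 gained in the GFP IP, 248 lost from the PABP1 IP and 0 higher through both. On the lower side it gave 342 lost from the GFP IP, 1330 gained in the PABP1 IP and 56 lower through both. The 2 classes of both, which need 3 calls at once (721 higher and 1832 lower as reported), fell to 404 and 1038 at adjusted p under 0.01, to 197 and 483 at 2-fold or more, to 451 and 1202 with no filter on dim probes, to 425 and 1103 within slide 2, and the higher one to 466 with the mean of probes; at 2-fold or more 1550 genes were lost from the GFP IP. The cause of these changes was not tested. Leaving out 1 array gave 2969 to 3528 higher and 5522 to 7204 lower genes. The slide as a block gave 3905 and 8210. The difference between the IPs turned for H2az2 (0.19, quantile normalization), Ube2j1 (0.040) and Tcstv1 (-0.067, both mean of probes), and Dab2 (0.051) and Gata4 (0.10, both normexp). The replicate block gave 3331 higher and 6455 lower genes. Deviations of arrays with the same number correlated at 0.52 to 0.62 where both lay on 1 slide. Where they lay on different slides the correlations were -0.74 to -0.29. The sign thus followed the slide, so this check cannot show whether the numbers pair samples, and no pairing was used in the main fit. Signal over background limits the dim genes, for which only bounds are given.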

Other observations

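Macrophage and blood cell genes were read as a list of 28 genes drawn up after Tyrobp, Aif1, Pf4 and Plac8 had been seen among the named genes. Of 20 tested members 18 were lower in the GFP IP than in the PABP1 IP and 0 were higher by limma, with a median of -2.53. Without the 4 genes seen before, 14 of 16 were lower and 0 higher, with a median of -2.17. Aif1, Pf4 and Fcgr1 entered the test only through the PABP1 IP, the group where they are high. Their calls thus followed in part from that filter, and Fcgr1 is among the 16. In the same 16 genes 15 were below input in the GFP IP and 0 above, with a median of -1.21, and 7 were above input in the PABP1 IP and 1 below, with a median of 0.86. Over all tested genes 47.6% were lower between the IPs. Against input 43.5% of all tested genes were lower in the GFP IP, and 34.3% were higher and 25.3% lower in the PABP1 IP. These cells are not named in the labels, and the list was not tested as a set.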
